A study of Homo sapiens with 4 samples.

Results

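The 9 mesenchymal and invasion genes described here, of 40877 gene names that hold a single gene, were followed across 4 single-cell libraries of 2 human cancer cell lines. They are VIM, ZEB1, AXL, PLAU, PLAUR, CAV1, CAV2, GNG11 and CYR61. They were picked by name because their levels differed between the lines in these same data. The contrast between the lines is therefore given as a description, and nothing rests on it. All 9 were listed in every library, and all 9 reached the minimum of 100 counts in the higher library of each of the 4 contrasts below.

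H1299 is a non-small cell lung cancer line and HCT116 a colorectal cancer line. Each line received either the solvent DMSO or decitabine (DAC), which blocks DNA methyltransferases, together with SB939, which blocks histone deacetylases. Both agents were used at 500 nM, DAC for 72 h and SB939 for 18 h, with medium renewed every 24 h and cells at passage 5 to 10. The treated libraries are called DAC+SB. The agents were only given together, so their separate effects cannot be told apart. Polyadenylated RNA was read from the 5′ end of transcripts by the droplet method of 10x Genomics, and no genotype beyond the line name was given.

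Each combination of line and treatment was 1 library, so no difference below has a replicate check and none was tested. The libraries held 3578 to 4327 cells and 38927267 to 64524196 counts. The median count per cell was 8449 in HCT116 DAC+SB and 15784.5 to 17369.5 in the others, and the median mitochondrial share was 18.6% there and 8.33% to 15.8% elsewhere. Between 18 and 30 barcodes were shared by any pair of libraries, at most 0.805% of the smaller one. Levels are counts scaled to the summed gene and transposable element counts of the library (CPM), with exact 95% Poisson intervals in parentheses. All intervals cover counting error only.

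Markers of the labelled tissues gave a mixed picture of the lines. A fixed list of 30 epithelial genes had 24 with at least 100 counts in either DMSO library. Under DMSO 20 of these were at least 4-fold lower in H1299 than in HCT116, where 8.11% of all 13796 genes counted were. Most of the 20 had under 100 counts in H1299, so they were counted only through their higher HCT116 level. CDX2, an intestinal transcription factor, measured 14 CPM in untreated and 6.40 in treated HCT116, against 0.0155 and 0.288 in H1299. The summed colon list as a whole did not separate the lines, at 30.5 and 20.2 CPM in H1299 (DMSO first) and 26.1 and 23.8 in HCT116. The lung list was low in both lines under DMSO, at 2.17 CPM in H1299 and 1.20 in HCT116, and summed to 24.8 and 17.0 CPM in the treated libraries. Lists of fibroblast and of immune and endothelial markers summed to 0.387 and 0.0620 CPM in untreated H1299, and to 38.5 and 6.09 in treated H1299. In HCT116 they summed to 9.12 and 0.287 untreated and to 127 and 3.11 treated, with THY1 the leading fibroblast gene of the treated library at 107 CPM. The part of these markers in the results below was not tested.

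Epithelial cells that lose their junctions and gain motility, in what is called the epithelial to mesenchymal transition, replace keratins by the intermediate filament vimentin under repressors such as ZEB1. Invasion through matrix draws on the urokinase protease and its receptor, which activate plasminogen at the cell surface. Caveolins coat membrane pits that take part in tension sensing and signalling, and CYR61 is a matrix protein best known as a target of the YAP and TEAD transcription factors. AXL is a receptor tyrosine kinase often found in mesenchymal tumour cells.

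Decitabine blocks the enzymes that keep CpG sites methylated when DNA is copied, and the members' promoters differed widely in CpG content. RefSeq windows on GRCh38.p14 were found for 8 of the 9 members, CYR61 having none in the table. The 250 bases before the start of transcription are printed for 5 members, 5′ to 3′ in lower case with every CpG in capitals. VIM and GNG11 are shown as the members at least 4-fold higher with treatment in HCT116, AXL and PLAU as those at least 4-fold lower in both lines, and CAV2 as the most CpG-rich. Their positions are chr10:17227991-17228240 for VIM, chr7:93921485-93921734 for GNG11, chr19:41218973-41219222 for AXL, chr10:73910882-73911131 for PLAU and chr7:116499488-116499737 for CAV2, all on the plus strand.
VIM: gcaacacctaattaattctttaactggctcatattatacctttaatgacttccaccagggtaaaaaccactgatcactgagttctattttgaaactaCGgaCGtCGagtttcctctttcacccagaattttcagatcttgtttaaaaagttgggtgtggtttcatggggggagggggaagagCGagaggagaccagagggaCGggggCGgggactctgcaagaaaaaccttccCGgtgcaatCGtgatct
GNG11: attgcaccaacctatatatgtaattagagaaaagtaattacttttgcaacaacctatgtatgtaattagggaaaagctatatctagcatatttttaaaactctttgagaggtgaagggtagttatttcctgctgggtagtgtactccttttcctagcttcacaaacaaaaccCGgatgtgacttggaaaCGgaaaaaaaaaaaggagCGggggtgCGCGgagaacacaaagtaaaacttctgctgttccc
AXL: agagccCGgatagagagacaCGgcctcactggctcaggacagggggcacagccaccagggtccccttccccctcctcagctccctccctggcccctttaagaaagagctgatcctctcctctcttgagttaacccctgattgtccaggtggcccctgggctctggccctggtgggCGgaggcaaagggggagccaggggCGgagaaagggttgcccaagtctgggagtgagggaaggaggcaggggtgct
PLAU: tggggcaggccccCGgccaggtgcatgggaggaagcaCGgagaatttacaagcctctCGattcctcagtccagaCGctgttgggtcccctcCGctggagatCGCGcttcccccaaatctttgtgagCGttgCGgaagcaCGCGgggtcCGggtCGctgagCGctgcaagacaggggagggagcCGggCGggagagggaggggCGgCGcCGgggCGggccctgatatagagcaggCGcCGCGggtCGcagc
CAV2: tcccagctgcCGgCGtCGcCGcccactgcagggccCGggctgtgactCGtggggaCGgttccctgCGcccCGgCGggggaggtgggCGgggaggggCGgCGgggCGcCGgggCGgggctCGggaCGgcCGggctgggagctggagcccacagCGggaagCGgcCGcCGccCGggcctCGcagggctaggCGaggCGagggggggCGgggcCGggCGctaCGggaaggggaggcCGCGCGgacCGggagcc

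The VIM window held 8 CpG sites and the GNG11 window 5, while AXL had 4, PLAU 24 and CAV2 35. Of all 35116 windows of this length, 56.3% held at least as many CpG sites as that of VIM, 65.7% as that of GNG11, 70.7% as that of AXL, 23.7% as that of PLAU and 5.80% as that of CAV2. The windows of the other members held 18 CpG sites in CAV1, 13 in PLAUR and 14 in ZEB1, against a median of 11.0 over all windows. Among those printed, the windows of VIM, GNG11 and AXL held fewer CpG sites than that median. The number depends on the start used, since a second window of AXL held 13 CpG sites and a second window of PLAU 4. Whether CpG number goes with the treatment ratio was not tested. Motifs were searched on both strands. The members have 19 windows in the table, since some have several starts, and the counts here are first for the 1 window per member nearest a principal transcript start. GGAATG, the core bound by TEAD factors, was in none of these 8 windows and in 11.9% of all windows. TGANTCA, the AP-1 motif, was in 1 (PLAUR) and in 6.57% of all, and CAGGTG, an E-box that ZEB proteins bind, was in 3 (AXL, PLAU and ZEB1) and in 17.5% of all. Over all 19 windows GGAATG was in 1 (a second start of AXL), TGANTCA in 1 and CAGGTG in 4. The deposited features carry no coordinates, so these windows could not be tied to the starts that were counted, and no motif match is a site.

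VIM, the intermediate filament protein, lies at chr10:17228259-17237593 on the plus strand (GENCODE v29, GRCh38, as for all genes below). It measured 2282 (2271 to 2294) CPM in H1299 with DMSO and 1151 (1143 to 1160) with DAC+SB, and 47.0 (45.4 to 48.8) in HCT116 with DMSO and 265 (260 to 270) with DAC+SB. Both H1299 libraries were above both HCT116 libraries, and the lines lay closer together with treatment than without. In H1299 the treated level was 1.98-fold lower, and in HCT116 it was 5.64-fold (5.41 to 5.87) higher. The ratio of H1299 to HCT116 went from 48.5 (46.8 to 50.3) with DMSO to 4.34 (4.25 to 4.43) with DAC+SB. On the log2 scale the treatment differences were -0.99 and 2.49, which differ by -3.48 (-3.54 to -3.42) for H1299 minus HCT116.

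**Figure D1:**
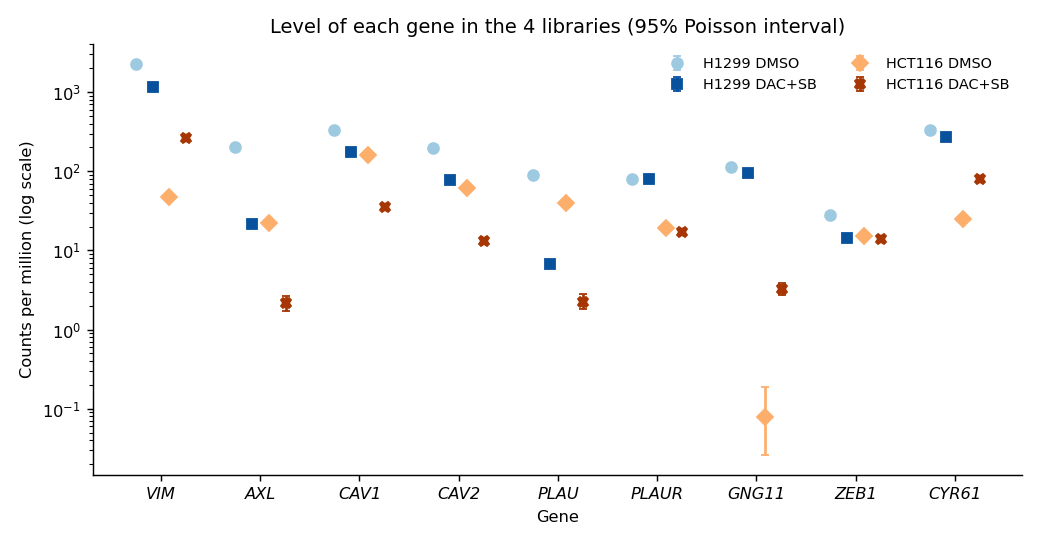
Level of each of the 9 genes in each of the 4 libraries, in CPM on a log axis, with exact 95% Poisson intervals as bars. Every gene was highest in H1299 DMSO, and VIM, GNG11 and CYR61 were higher in the treated than in the control HCT116 library.

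ZEB1, a zinc finger repressor of epithelial genes, lies at chr10:31318495-31529814 on the plus strand. It measured 27.8 (26.5 to 29.1) CPM in H1299 with DMSO and 14.4 (13.5 to 15.4) with DAC+SB, and 15.2 (14.3 to 16.2) in HCT116 with DMSO and 14.1 (12.9 to 15.3) with DAC+SB. Only H1299 DMSO stood apart, and the intervals of the other 3 libraries overlapped. With treatment ZEB1 was 1.93-fold lower in H1299, a log2 difference of -0.95 (-1.06 to -0.83). In HCT116 the log2 difference was -0.12 (-0.27 to 0.04), an interval that holds 0. The ratio of the lines was 1.83 with DMSO and 1.03 (0.921 to 1.14) with DAC+SB. ZEB1-AS1, which lies antisense beside ZEB1, measured 6.0, 7.88, 2.25 and 4.44 CPM in the same order. Since the use of strand in counting was not given, reads of the pair cannot be told apart.

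AXL lies at chr19:41219203-41261766 on the plus strand. It measured 204 (201 to 208) CPM in H1299 with DMSO and 21.3 (20.2 to 22.5) with DAC+SB, and 22.2 (21.1 to 23.4) in HCT116 with DMSO and 2.16 (1.72 to 2.67) with DAC+SB. The treated H1299 library and the control HCT116 library had overlapping intervals. AXL was 9.57-fold (9.05 to 10.1) lower with treatment in H1299 and 10.3-fold (8.26 to 13) lower in HCT116. The log2 difference between these folds was 0.11 (-0.22 to 0.43) for H1299 minus HCT116, so counting error allows the fold to be larger in either line. AXL was accordingly about as far apart between the lines with DMSO, at 9.18-fold, as with DAC+SB, at 9.88-fold.

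PLAU, at chr10:73909177-73917497 on the plus strand, encodes urokinase, the protease that activates plasminogen. It measured 88.8 (86.5 to 91.1) CPM in H1299 with DMSO and 6.71 (6.08 to 7.39) with DAC+SB, and 39.6 (38.0 to 41.2) in HCT116 with DMSO and 2.26 (1.81 to 2.79) with DAC+SB. Here treatment separated the libraries more than the line did: both treated levels lay below both control levels. PLAU was 13.2-fold (12 to 14.6) lower with treatment in H1299 and 17.5-fold (14.2 to 21.9) lower in HCT116, where 88 counts were found against 2480 with DMSO. C10orf55, an antisense gene that overlaps PLAU, measured 1.89, 0.801, 0.607 and 0.334 CPM in the same order, and its reads could not be told apart from those of PLAU without strand.

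PLAUR, the receptor that holds urokinase at the cell surface, lies at chr19:43646095-43670547 on the minus strand. It measured 80.1 (77.9 to 82.3) CPM in H1299 with DMSO and 78.9 (76.7 to 81.1) with DAC+SB, and 19.4 (18.4 to 20.6) in HCT116 with DMSO and 17.3 (16.0 to 18.7) with DAC+SB. The intervals of treated and control libraries overlapped within each line, while the lines were 4.12-fold (3.87 to 4.39) apart with DMSO and 4.56-fold (4.2 to 4.95) with DAC+SB. The DMSO ratio lies just past 4-fold, a log2 ratio of 2.04 that was 1.94 in thinned cells. The protease and its receptor thus had unlike treatment ratios, with log2 differences of -3.73 for PLAU and -0.02 (-0.08 to 0.03) for PLAUR in H1299, and of -4.13 and -0.17 (-0.31 to -0.03) in HCT116.

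CAV1, the main coat protein of caveolae, measured 337 (333 to 342) CPM in H1299 with DMSO and 177 (174 to 181) with DAC+SB, and 161 (158 to 164) in HCT116 with DMSO and 35.7 (33.9 to 37.6) with DAC+SB. CAV2, its partner in the coat, measured 194 (191 to 198), 76.5 (74.3 to 78.7), 61.7 (59.8 to 63.7) and 13.3 (12.2 to 14.5) CPM in the same order. Both genes had the same order of libraries, with HCT116 DAC+SB lowest. CAV1 was 1.90-fold lower with treatment in H1299 and 4.51-fold (4.27 to 4.78) lower in HCT116, and CAV2 2.54-fold and 4.65-fold (4.24 to 5.10) lower. The log2 differences of H1299 minus HCT116 were 1.25 (1.16 to 1.34) for CAV1 and 0.87 (0.73 to 1.01) for CAV2, the larger decrease being in HCT116. Unlike VIM, the caveolins were further apart between the lines after treatment: CAV1 went from 2.09-fold to 4.97-fold and CAV2 from 3.15-fold to 5.76-fold. The genes lie close together on the plus strand of chromosome 7, CAV2 at chr7:116287380-116508541 and CAV1 at chr7:116524785-116561184.

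GNG11, a gamma subunit of heterotrimeric G proteins, lies at chr7:93921699-93928610 on the plus strand. It measured 112 (110 to 115) CPM in H1299 with DMSO and 94.5 (92.1 to 97.0) with DAC+SB, and 0.0798 (0.0259 to 0.186) in HCT116 with DMSO and 3.24 (2.70 to 3.85) with DAC+SB. It was close to absent from untreated HCT116, with 5 counts in all of HCT116 DMSO against 126 in HCT116 DAC+SB. That is a 40.6-fold (16.9 to 127) higher level, whose width comes from the 5 control counts. In H1299 the treated level was 1.19-fold lower, and treated HCT116 was still 29.2-fold (24.5 to 35.1) below treated H1299. GNGT1, a neighbouring gamma subunit gene, measured 5.25 and 3.75 CPM in H1299 (DMSO first), was listed at 0 in HCT116 DMSO and measured 0.180 in HCT116 DAC+SB.

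CYR61, a secreted matrix protein also named CCN1, lies at chr1:85580761-85583962 on the plus strand. It measured 330 (326 to 335) CPM in H1299 with DMSO and 272 (268 to 276) with DAC+SB, and 25.1 (23.9 to 26.4) in HCT116 with DMSO and 79.0 (76.2 to 81.8) with DAC+SB. Like VIM it was lower with treatment in H1299 and higher in HCT116, by 1.21-fold and by 3.15-fold (2.96 to 3.34). The lines stood 13.2-fold (12.5 to 13.9) apart with DMSO and 3.45-fold (3.32 to 3.58) apart with DAC+SB.

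The members are set here beside all genes that reached 100 counts in either library. They were picked for a difference between the lines, and all were highest in H1299 DMSO. That choice favours decreases with treatment in H1299, so genes that were not picked are not a like background. With treatment, 2 of the 9 members (AXL and PLAU) were at least 4-fold lower in H1299, where 0.349% of 14610 genes were, and none was at least 4-fold higher, where 11.0% of genes were. The members' median log2 ratio there was -0.95, against -0.07 over all genes. In HCT116, 4 members (AXL, PLAU, CAV1 and CAV2) were at least 4-fold lower, where 3.69% of 13539 genes were, and 2 (VIM and GNG11) were at least 4-fold higher, where 9.63% were. GNG11 counted there with 126 counts, and without cells above 25% mitochondrial counts it fell under the minimum of 100, which left VIM as 1 member higher. The median in HCT116 was -0.17, against -0.23 over all genes. Between the lines, which the choice of members used, 5 members were at least 4-fold higher in H1299 with DMSO, where 9.92% of genes were, and 6 with DAC+SB, where 8.97% were. At 2-fold, 8 members were higher in H1299 with DMSO, where 20.5% of genes were. None was at least 4-fold lower in H1299, where 8.11% and 4.65% of genes were. The treatment and line contrasts draw on the same 4 libraries and are not independent of each other.

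**Figure D2:**
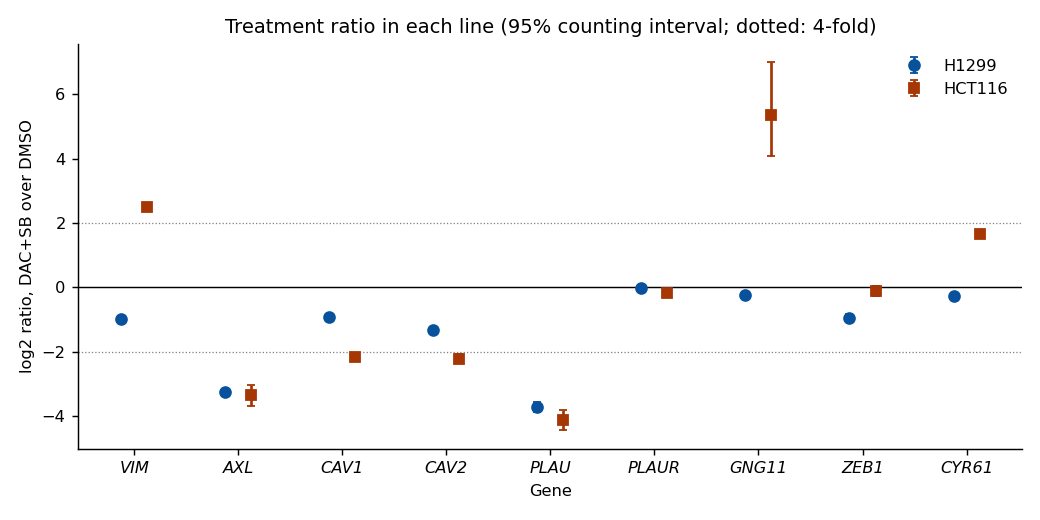
Log2 ratio of the DAC+SB level to the DMSO level for each gene in H1299 (circles) and HCT116 (squares), with 95% counting intervals and dotted lines at 4-fold. AXL and PLAU lie below the lower line in both cell lines, and VIM, GNG11 and CYR61 lie on opposite sides of 0.

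Shares of cells with a count depend on depth, so every cell was thinned at random to 3300 counts, which left out 402 shallower HCT116 DAC+SB cells and none elsewhere. No cell type that lacks these genes was present within a library, so the share that free RNA gives was not measured. VIM had a count in 98.9% of thinned cells in H1299 with DMSO and 89.5% with DAC+SB, and 10.6% in HCT116 with DMSO and 44.5% with DAC+SB. Before thinning the shares were 100%, 99.4%, 29% and 64.1%. The higher VIM level of treated HCT116 was thus met in more cells. It stayed below that of H1299 in most of them: 378 of 3925 thinned HCT116 DAC+SB cells (9.63%) reached the median cell of the H1299 library of the same treatment, and 3 of 3658 (0.0820%) did with DMSO.

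GNG11 was counted in 29.6% and 25.1% of thinned H1299 cells (DMSO first) and in 1.10% of thinned HCT116 DAC+SB cells. In HCT116 DMSO it was found in 0 of 3658 thinned cells, which says little at this depth, since 5 cells held a count before thinning. Before thinning it was in 78.2%, 67.6%, 0.137% and 2.54% of cells in the order of libraries used above. Even at full depth the treated HCT116 signal lay in 110 cells, mostly 1 count in each. CYR61 went the same way over more cells, with 56.3%, 52.7%, 7.27% and 19.8% of thinned cells and 88.0%, 83.8%, 28.5% and 36.9% before thinning.

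AXL was counted in 39.3% of thinned H1299 DMSO cells, 6.66% of H1299 DAC+SB cells, 6.64% of HCT116 DMSO cells and 0.739% of HCT116 DAC+SB cells (77.9%, 24.0%, 26.4% and 1.78% unthinned). PLAU was counted in 22.0%, 2.17%, 10.6% and 0.611% (54.2%, 8.53%, 35.7% and 1.80% unthinned). CAV1 was counted in 60.2%, 39.7%, 38.6% and 9.76% of thinned cells (95%, 82.6%, 81.4% and 23.3% unthinned). For these genes the decrease with treatment was seen in the share of cells as well as in the summed level. CAV2, PLAUR and ZEB1 kept the order of their levels in the share of cells, except where the levels' intervals overlapped.

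**Figure D3:**
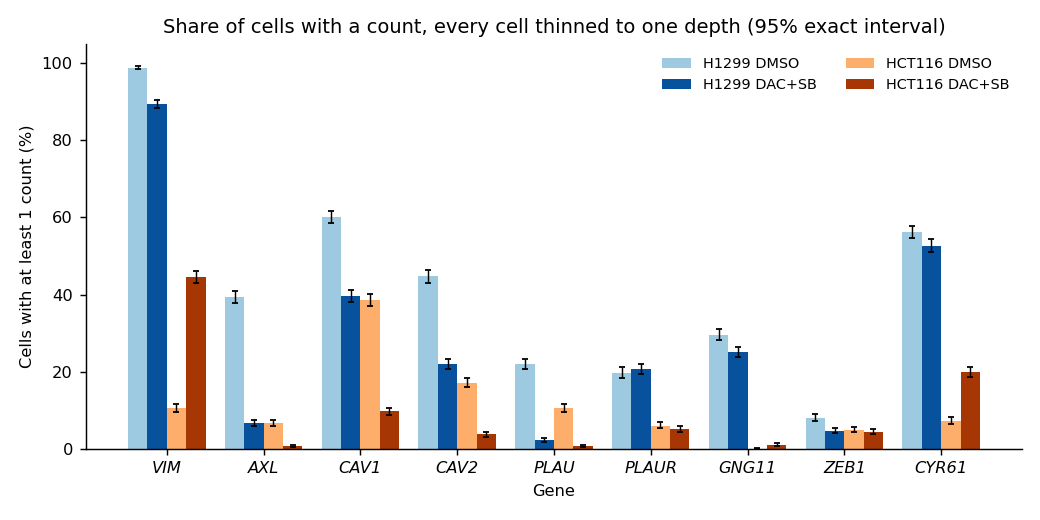
Share of cells with at least 1 count of each gene after thinning every cell to 3300 counts, in percent, with exact Clopper-Pearson 95% intervals as bars. VIM spans 10.6% to 98.9% of cells, and GNG11 is at 0 in HCT116 DMSO.

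The spread of counts over thinned cells was described for each library. VIM counts per thinned cell had a median of 7 in untreated and 3 in treated H1299, and a median of 0 in both HCT116 libraries, where the 99th percentile was 3 with DMSO and 6 with DAC+SB. The variance divided by the mean is 1 for counts scattered at random. For VIM it was 2.91 and 3.20 in H1299 (DMSO first), at means of 7.43 and 3.88 counts. In HCT116 it was 2.10 and 2.09, at means of 0.156 and 0.844. The excess over 1 can grow with the mean, so the ratio does not rank libraries or genes of unlike mean by unevenness. With the same mean scattered at random, 14.4% of HCT116 DMSO cells and 57.0% of HCT116 DAC+SB cells would have had a VIM count, against the 10.6% and 44.5% measured. CYR61 had ratios of 1.66 in H1299 DMSO and 1.68 in HCT116 DAC+SB, AXL 1.65 and PLAU 1.59 in H1299 DMSO. ZEB1 and CAV2 stayed between 1.02 and 1.21 in all 4 libraries, with ZEB1 means of at most 0.0880. In H1299 DMSO, CAV2 and AXL had similar means of 0.659 and 0.646, and ratios of 1.21 and 1.65. The use of UMIs was not given, so the part of repeated reads in these departures from random scatter was not tested.

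**Figure D4:**
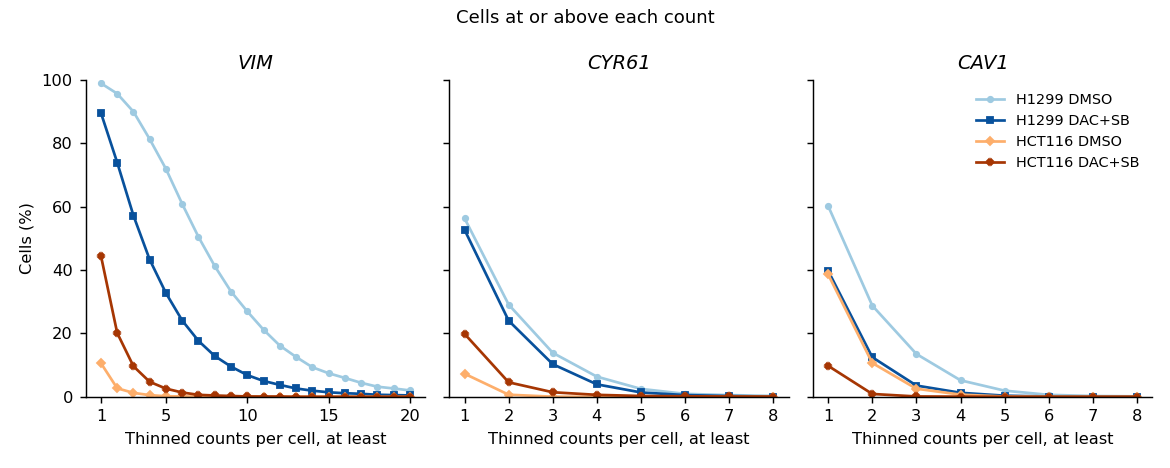
Percent of thinned cells with at least the number of counts on the x axis, for VIM, CYR61 and CAV1 in the 4 libraries. The VIM curves of HCT116 lie below those of H1299 throughout, and the CAV1 curve of HCT116 DAC+SB lies lowest of its 4.

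Counted together, a median of 4 of the 9 members was found in a thinned H1299 DMSO cell, 3 in H1299 DAC+SB and 1 in either HCT116 library. At least 5 members were found in 1039 cells of H1299 DMSO (29%), 211 of H1299 DAC+SB (5.66%), 1 of HCT116 DMSO and 0 of HCT116 DAC+SB. Cells with no member numbered 0, 39, 1200 (32.8%) and 1362 (34.7%) in the same order. Within a library the members were weakly correlated over cells. Pearson's r of log-scaled thinned counts ran from -0.13 to 0.23 over the 36 pairs in untreated H1299 and from -0.09 to 0.05 in treated H1299. It ran from -0.03 to 0.04 over the 28 pairs measurable in untreated HCT116 and from -0.02 to 0.03 in treated HCT116. The cells share a library and a depth, and correlations this weak in sparse counts are no finding.

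The deposited table splits some genes into numbered features whose meaning is not given, and a numbered feature was listed only from 10 counts. All 9 members had both kinds of feature in at least 1 library. AXL had a numbered feature in HCT116 only, with 158 of 1392 counts in DMSO and 13 of 84 in DAC+SB. GNG11 had a second numbered feature of 807 counts in H1299 DAC+SB only, and its first was not listed in HCT116 DMSO but held 42 of the 126 counts in HCT116 DAC+SB. The numbered share of CAV1 was 15.8%, 31.0%, 38.1% and 43.3% in the order of libraries used above, and that of VIM 59.1%, 60.9%, 44.6% and 66.4%. When features listed in both libraries alone were used, the log2 treatment ratio of GNG11 in HCT116 was 4.76 in place of 5.34.

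Genes of related function were taken from lists, and each is counted over members with at least 100 counts, with the 4-fold rule used above. Either library could supply these counts, so a gene under 100 counts in the control entered only through a higher treated count. For every list the shares over all genes are those given above: 11.0% (H1299) and 9.63% (HCT116) were at least 4-fold higher with treatment, and 0.349% and 3.69% were lower. Among the other transcription factors of the transition, 1 of 9 was higher with treatment in H1299 (SNAI1) and 2 of 6 in HCT116 (SNAI1 and SNAI3), and none was lower, the H1299 share being that of all genes. Their median log2 ratios were -0.22 and 1.32, against -0.07 and -0.23 over all genes. The repressor SNAI1 measured 0.682 CPM in H1299 with DMSO and 7.34 with DAC+SB, and 7.89 in HCT116 with DMSO and 34.9 with DAC+SB. It thus had the opposite sign from ZEB1 in H1299. ZEB2, the close relative of ZEB1, measured 20.3 and 14.2 CPM in H1299 and was at 0 and 1.41 in HCT116 (DMSO first).

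Matrix and contractile genes had 6 of 23 members higher with treatment in H1299 (SPARC, COL1A1, COL1A2, CNN1, THY1 and VCAN) and none lower. All 6 had under 100 counts in H1299 DMSO and entered only through the treated library. In HCT116, 2 of 16 were higher (CDH2 and THY1) and 1 was lower (VCAN), the higher share in HCT116 being near the 9.63% of all genes. CDH2 and THY1 likewise entered there only through the treated library. No gene of this list with at least 100 control counts was at least 4-fold higher in either line. Their median log2 ratios were 0.46 and 0.06. THY1, a surface glycoprotein of fibroblasts, was at 0 in untreated and at 18.8 CPM in treated H1299, at least 405-fold higher, and at 0.192 and 107 CPM in HCT116. TPM1, an actin-binding tropomyosin, measured 709 CPM in untreated and 387 in treated H1299, and 68.2 and 63.2 in HCT116. LGALS1, a secreted lectin, measured 1336, 1833, 1360 and 2351 CPM in the order of libraries used above, so that this abundant mesenchymal gene did not separate the lines as VIM did.

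Of 15 plasminogen and metalloprotease genes beside PLAU and PLAUR counted in H1299, 3 were higher with treatment (SERPINE2, MMP1 and MMP9) and 1 lower (MMP14). Of 17 in HCT116, 5 were higher (among them SERPINB2, MMP1, MMP10 and TIMP3) and 1 lower (MMP14), with median log2 ratios of 0.11 and 0.59. MMP14, a membrane-bound matrix protease, measured 14.8 CPM in H1299 with DMSO and 2.77 with DAC+SB, and 3.54 in HCT116 with DMSO and 0.694 with DAC+SB. MMP1, a collagenase, had 24, 186, 1 and 209 counts in the same libraries. Its log2 ratio was 8.39 (5.90 to 13.70) in HCT116, which rests on 1 control count. MMP14 and MMP1 were past 4-fold in the same direction in both lines.

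Of 8 caveolar genes besides the caveolins followed here, 1 was at least 4-fold higher with treatment in H1299 (SDPR), a share near the 11.0% of all genes, and none in HCT116, with median log2 ratios of -0.06 and -0.33. PTRF, which encodes cavin-1, measured 156, 125, 74.0 and 67.4 CPM in the 4 libraries, log2 differences of -0.32 and -0.13 where CAV1 had -0.93 and -2.17. Of 5 genes of the receptor family of AXL and its ligands, LGALS3 was higher in H1299 and PROS1 lower in HCT116, with medians of 0.00 and -0.08. GAS6, the ligand of AXL, measured 15.4, 9.42, 7.76 and 7.32 CPM, and its receptor TYRO3 measured 6.68, 8.03, 12.2 and 3.98 CPM.

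Among targets of YAP and TEAD besides CYR61, 3 of 18 were higher with treatment in H1299 (CTGF, ANKRD1 and CCDC80) and 1 lower (NT5E), and 3 of 16 were higher in HCT116 (CTGF, IGFBP3 and CCDC80) and 1 lower (MYOF). The higher shares were 16.7% in H1299 and 18.8% in HCT116, beside 11.0% and 9.63% of all genes. The medians were -0.58 and -0.52, below the -0.07 and -0.23 of all genes. CTGF, the closest relative of CYR61, measured 72.4 CPM in H1299 with DMSO and 349 with DAC+SB, and 3.90 in HCT116 with DMSO and 77.5 with DAC+SB. It was higher with treatment in both lines, whereas CYR61 was higher in HCT116 alone. NT5E, an ectonucleotidase, measured 366, 91.0, 16.3 and 10.1 CPM. Of the 7 YAP and TEAD factors themselves, none was past 4-fold in H1299 and TEAD2 was lower in HCT116, with medians of -0.44 and -0.49. YAP1 was 2.46-fold lower with treatment in H1299 and 3.98-fold (3.28 to 4.86) lower in HCT116, just short of 4-fold.

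Of 6 G protein gamma genes besides GNG11 in H1299, GNG7 was higher with treatment and none lower, with a median of -0.47, and of 5 in HCT116 none was past 4-fold, with a median of -1.74. GNG5 measured 876, 636, 529 and 229 CPM, so GNG11 had the opposite sign from GNG5 in HCT116. That sign was not particular to GNG11, since GNG7 had a log2 ratio of 0.38 there. The gamma genes left out for having under 100 counts in both HCT116 libraries were also higher with treatment. Of the intermediate filament genes besides VIM and the keratins, 3 of 8 were higher in H1299 (DES, PRPH and NES), and in HCT116 2 of 9 were higher (DES and INA) and 1 lower (LMNB1), with medians of -0.09 and 0.92. INA, a neuronal filament protein, was at 64.5 and 45.5 CPM in H1299, and in HCT116 at 0 with DMSO and 16.8 with DAC+SB. Its direction matched that of VIM in each line, which was so for no other gene of this list.

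Epithelial genes, the reverse side of the transition, had 13 of 18 members at least 4-fold higher with treatment in H1299, where 11.0% of all genes were. None was lower, and the median log2 ratio was 4.69. Most of the 13 had under 100 counts in H1299 DMSO and entered only through the treated library, so this count and median depend on the entry rule. Most list genes with at least 100 control counts were not 4-fold higher in H1299. In HCT116, 3 of 25 were higher (CDH1, ELF3 and CD24) and 3 lower (ESRP1, RAB25 and PKP3), with a median of -0.21, where 9.63% and 3.69% of all genes were. KRT19 had 3 counts in untreated H1299 and measured 42.2 CPM in treated H1299, with 181 and 287 CPM in HCT116. KRT18 measured 255, 676, 229 and 325 CPM, and DSP, a desmosome protein, 3.67, 23.3, 113 and 52.9. CDH1, the epithelial cadherin, was at 0 in untreated and at 0.593 CPM in treated H1299, and it measured 0.798 and 3.47 CPM in HCT116. It was sparsely counted in both lines, with 50 counts in HCT116 DMSO. CDH1 was singled out after its values were seen.

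**Figure D5:**
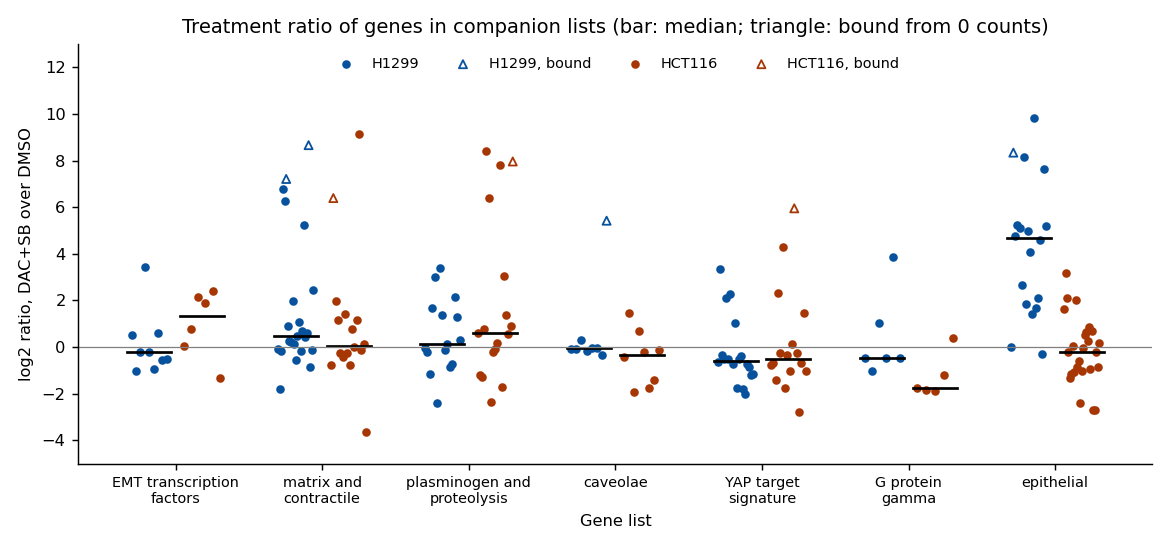
Log2 ratio of DAC+SB to DMSO for each gene of the companion lists that reached 100 counts in either library, with each list's median as a bar and bounds from a library at 0 as triangles. The epithelial list has its H1299 median at 4.69, over genes that mostly reached 100 counts only with treatment. The medians of the YAP target list lie at -0.58 and -0.52.

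Over the 4 libraries the members did not follow 1 common profile. Profiles were log2(CPM + 1) values centred on each gene's mean, and likeness was the Euclidean distance to the members' median profile. CAV2 lay nearest, at 0.34, and CAV1 at 0.56, whereas VIM lay at 3.45 and GNG11 at 4.47. Of 15496 other genes the 5 nearest were JPX and MDFIC at 0.09, WSB2 at 0.10, YAP1 at 0.11 and AC108488.3 at 0.17. YAP1, a coactivator of the TEAD factors, was singled out from these 5 for its function. It measured 42.8 CPM in H1299 with DMSO and 17.4 with DAC+SB, and 12.5 in HCT116 with DMSO and 3.13 with DAC+SB. That order of libraries, with the level lowest in HCT116 DAC+SB, is the one of the caveolins and PLAUR, and differs from that of VIM and CYR61. YAP1 RNA does not measure YAP activity, and its part in the members' levels was not tested.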

How the data were processed

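The authors deposited whole-number counts per feature and cell, 1 table of genes and 1 of transposable elements, each listing values of at least 1. CASAVA and STAR and the build GRCh38/hg38 are named in the submitters' processing notes. The counting tool, annotation, strand setting, cell filter and use of UMIs were not given in the sources used here. All cells and all features that name a single gene were used, with every cell assigned to its library by name. No doublet caller was run.

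Counts were summed per gene and library and divided by gene plus transposable element counts. With 1 library per group nothing was tested. Ratios carry exact conditional binomial intervals, levels exact Poisson intervals and shares Clopper-Pearson intervals, all at 95%, and differences between lines of a log2 ratio use a normal approximation. Genes that reached 100 counts in either library were counted at 4-fold. A gene at 0 was set to 3 counts per library and its ratio is a bound. The members and lists were chosen with earlier results of these data known. From each list the 4 genes with the highest mean level were eligible to be named, with any gene past 4-fold in the same direction in both lines, and genes that make up a small count. A few genes of these lists are not reported here by name. The promoter printed is the RefSeq window nearest the start of a GENCODE v29 principal transcript. Scripts ran in Python 3.11.15 with numpy 2.4.6, pandas 2.3.3 and scipy 1.17.1, and the calls were tested on simulated data. Alternatives changed the denominator, the cells used, the features used, the thinning, the fold and the count minimum.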

Additional observations from a re-analysis of the deposited data

Results flagged for a closer look

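The sign of the treatment difference was opposite in the 2 lines for 3 of the 9 genes. The share of all genes with opposite signs was not computed, so this count is only a description. VIM had a log2 ratio of DAC+SB to DMSO of -0.99 in H1299 and 2.49 in HCT116. GNG11 had -0.25 in H1299 and 5.34 in HCT116, the latter resting on 5 control counts. CYR61 had -0.28 in H1299 and 1.65 in HCT116. The H1299 values of GNG11 and CYR61 were small, 1.19-fold and 1.21-fold lower. Each line and treatment was a single library, so none of these differences between the lines was tested.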

How the results depend on the processing

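Among the members' log2 ratios no value past 4-fold changed sign under any alternative tried, and the largest shift was 0.58 (GNG11 in HCT116, 5.34 against 4.76 with features listed in both libraries alone; its other alternatives reached 5.78). PLAUR between the lines with DMSO fell under 4-fold at 1.94 to 1.97 in thinned cells, as a mean over cells, without the 5% of cells with most counts and without mitochondrial and ribosomal protein genes. Values near 0 crossed it for PLAUR in H1299 (-0.02 to 0.03) and for ZEB1 between the treated lines (0.04 to -0.07). Members at least 4-fold higher in treated HCT116 numbered 1 in place of 2 without cells above 25% mitochondrial counts, with features listed in both libraries alone, and with at least 1000 counts, since GNG11 then fell below the minimum. At 2-fold, 8 members in place of 5 were higher in H1299 with DMSO. Joined names hold no member and changed none of 72 list counts.

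Counts over all genes, higher and lower in turn, moved with the threshold. H1299 over HCT116 with DMSO (1368 and 1119) gave 2833 and 2092 at 2-fold, 389 and 266 with at least 1000 counts, 2250 and 1855 with at least 20. With DAC+SB (1334 and 692) they were 3781 and 1802, 401 and 139, and 2244 and 1451. Treatment in H1299 (1612 and 51) gave 2673 and 1072, 200 and 28, and 3992 and 117. Treatment in HCT116 (1304 and 500) gave 2192 and 2706, 170 and 252, and 3466 higher with at least 20. With features listed in both libraries alone, 858, 948 and 676 genes were higher between the lines with DMSO, with treatment in H1299 and with treatment in HCT116. The cause of these moves is the number of genes tested, the fold or the features kept. No paired analysis was possible because each group held 1 library and the labels carry no replicate number.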

Other observations

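S100A10, a subunit of a plasminogen receptor, measured 763 CPM in H1299 with DMSO and 821 with DAC+SB, and 909 in HCT116 with DMSO and 1014 with DAC+SB. ANXA2, its annexin partner, measured 207, 199, 283 and 426 CPM in the same order. Both were lower in H1299 than in HCT116 with DMSO, the reverse of PLAU and PLAUR. TIMP1, an inhibitor of metalloproteases, measured 137, 339, 99 and 147 CPM and was higher with treatment in both lines.

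TCF4, a transcription factor linked to the mesenchymal state, measured 34.5 and 18.0 CPM in H1299 (DMSO first) and 0.0479 and 0.796 in HCT116. Like VIM and CYR61 it was lower with treatment in H1299 and higher in HCT116, with log2 ratios of -0.94 and 4.06, the latter resting on 3 control counts and below the minimum of 100 counts. ANKRD1, a target of YAP, measured 41.7 and 425 CPM in H1299 and 0.0639 and 2.47 in HCT116, where its 4 control and 96 treated counts were below that minimum. CD24, a surface glycoprotein of epithelial cells, was at 0 in H1299 DMSO and at 15 CPM in H1299 DAC+SB, and at 3.74 and 33.3 CPM in HCT116.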
